A study of Mus musculus with 4 samples.

Results

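The immediate early and AP-1 genes described here are 10 listed genes, Fos, Fosb, Jun, Junb, Jund, Egr1, Egr2, Ier2, Ier3 and Dusp1, of 17561 genes in the deposited table. They were chosen as a list of symbols, each matched to its Ensembl gene, and all 10 were found. The cells were 11754 CD8+ T cells sorted from the BM of mice 28 days after SCT, in 4 libraries, each from 5 pooled mice of 1 treatment group. The groups were isotype control with vehicle, isotype control with lenalidomide, anti-TIGIT with vehicle, and anti-TIGIT with lenalidomide. The antibody was given from the day of SCT and lenalidomide or vehicle from day 14. All recipients had a C57Bl/6 background, were WT or CRBN transgenic, and per the study's methods carried the myeloma Vk12653. CRBN transgenic mice have a modified cereblon through which lenalidomide can degrade Ikaros and Aiolos, and the labels do not say which library came from which genotype. No label names the treatment of library 1, 2, 3 or 4, so treatments were not compared, and the libraries are given by number.

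Immediate early genes are transcribed within minutes of a signal such as engagement of the T cell receptor, with no need for new protein synthesis. Fos, Fosb, Jun, Junb and Jund encode the proteins that pair to form the transcription factor AP-1, and Egr1 and Egr2 encode zinc finger transcription factors. Ier2 and Ier3 are small proteins of the same early response, and Dusp1 is a phosphatase that switches off MAP kinases. In T cells, AP-1 acts with NFAT on cytokine genes, and EGR factors are known for their part in restraint of T cell activation.

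The cells fell into 8 clusters named by the authors, Tn, Tcm, transitory Teff, GzmB+ Teff, GzmA+ Tex, TIM-3+ Tex, TIGIT+ Teff and cycling Tex cells. Levels are counts of unique molecular identifiers (UMIs) added up across a cluster's cells and scaled to 1000000 UMIs of those cells (CPM). Libraries held 1725 to 4237 cells and 15556967 to 38440687 UMIs, with medians of 7115 to 7669 UMIs per cell. The smallest group of cells was TIM-3+ Tex in library 3, with 31 cells, and 56 cell barcodes occurred in more than 1 library. The T cell markers Cd3e, Cd3g and Cd8a were present in every cluster, as the authors' cell filter required, whereas Cd4 was at 0 in 4 clusters and at most 1.53 CPM in the others. Cd8b1, not part of that filter, was at 217 CPM in Tcm and at 934 to 1327 CPM elsewhere. Ncr1, a marker of NK cells, was highest in Tcm, at 4.92 CPM. GzmA+ Tex also held 1388 CPM of 6 summed macrophage markers, against 6.24 to 76.5 CPM in the other clusters, and 93.3% of its cells held a UMI of Lyz2, Cd74, Apoe, C1qa, C1qb, Csf1r or Jchain. TIGIT+ Teff stood apart in the nuclear transcript Malat1, at 6564 CPM against 2271 to 2984 CPM elsewhere, and in its mitochondrial share, with a median of 2.87%. With 1 library per treatment and clusters built from the same expression values, no test between groups was made, and intervals of 95% cover counting error only. Fewer cells with a transcript and less transcript per cell cannot be told apart in a summed level.

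The stretches of 250 bases before the start of Fos, Fosb, Jun, Junb, Ier3 and Dusp1 are shown, chosen after the levels were seen. Fos, Jun and Junb varied together across clusters, Ier3 had the widest range of the members, and Fosb was not closely like any other member. Dusp1 was, with Fos and Junb, lowest in library 1 in every cluster. In GENCODE M21, on the same mouse build, Fos lies at chr12:85473890-85477273, Fosb at chr7:19302696-19310051, Jun at chr4:95049034-95052222, Junb at chr8:84974484-84978718 and Ier3 at chr17:35821684-35822923, and the gene start of Fosb, Junb and Ier3 differs slightly from that of RefSeq. Dusp1 lies at chr17:26505590-26562128 on the minus strand, a span of 56539 bases. Its GENCODE start is therefore far from the RefSeq start before which its stretch was taken. The stretches are RefSeq sequences of build GRCm38.p6, read 5′ to 3′ on the strand of the gene. The Fos stretch is chr12:85473640-85473889 on the plus strand, Fosb is chr7:19310046-19310295 on the minus strand, Jun is chr4:95052223-95052472 on the minus strand, and Junb is chr8:84978749-84978998 on the minus strand. The Ier3 stretch is chr17:35821463-35821712 on the plus strand and the Dusp1 stretch is chr17:26508473-26508722 on the minus strand. Capitals mark TGACG, the core of a cyclic AMP response element, together with TGACGTCA, TATAAA and CCAAT, and the EGR element GCGGGGGCG, each searched on both strands.
Fos: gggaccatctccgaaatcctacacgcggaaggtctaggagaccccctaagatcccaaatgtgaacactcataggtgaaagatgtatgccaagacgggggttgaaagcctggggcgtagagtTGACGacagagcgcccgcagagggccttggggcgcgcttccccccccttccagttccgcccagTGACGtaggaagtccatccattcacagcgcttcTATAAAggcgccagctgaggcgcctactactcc
Fosb: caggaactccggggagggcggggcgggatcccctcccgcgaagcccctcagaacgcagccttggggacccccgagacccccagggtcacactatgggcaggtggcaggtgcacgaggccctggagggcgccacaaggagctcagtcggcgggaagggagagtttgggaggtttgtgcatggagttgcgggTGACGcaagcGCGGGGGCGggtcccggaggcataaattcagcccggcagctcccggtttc
Jun: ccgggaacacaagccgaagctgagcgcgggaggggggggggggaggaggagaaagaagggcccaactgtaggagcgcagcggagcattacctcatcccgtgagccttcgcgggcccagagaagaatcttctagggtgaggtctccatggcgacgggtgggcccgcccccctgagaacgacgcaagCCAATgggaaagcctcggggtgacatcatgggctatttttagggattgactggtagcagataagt
Junb: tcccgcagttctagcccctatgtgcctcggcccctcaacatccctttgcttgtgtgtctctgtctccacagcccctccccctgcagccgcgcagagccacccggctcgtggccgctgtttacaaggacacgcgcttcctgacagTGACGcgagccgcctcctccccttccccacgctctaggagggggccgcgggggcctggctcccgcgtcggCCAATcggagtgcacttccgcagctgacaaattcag
Ier3: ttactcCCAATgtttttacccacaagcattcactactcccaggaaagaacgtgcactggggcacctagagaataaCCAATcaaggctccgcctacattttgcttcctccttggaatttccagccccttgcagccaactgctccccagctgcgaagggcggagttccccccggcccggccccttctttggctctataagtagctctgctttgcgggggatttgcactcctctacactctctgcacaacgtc
Dusp1: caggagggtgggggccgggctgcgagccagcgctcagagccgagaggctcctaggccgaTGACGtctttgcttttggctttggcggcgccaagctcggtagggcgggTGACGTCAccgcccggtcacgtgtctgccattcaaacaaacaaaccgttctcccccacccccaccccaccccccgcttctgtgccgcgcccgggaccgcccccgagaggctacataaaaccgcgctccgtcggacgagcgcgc
TGACG was found at 2 places before Fos, at 1 each before Fosb and Junb, and at 1 before Dusp1 apart from its TGACGTCA. Of 32851 mouse promoter stretches of this length, 17.8% hold it. The stretches searched for Jund and Egr2, not shown, held none of the marked letters. The Jund stretch, chr8:70697489-70697738 on the plus strand, ends well before the GENCODE start of Jund at 70698949. Egr2 had 5 RefSeq entries, of which only the first was searched. Only the Dusp1 stretch, among the 6 shown, held the full TGACGTCA, which contains TGACG on both strands and occurs in 1.55% of all stretches. TATAAA was found before Fos (12.4% of stretches), and CCAAT before Jun and Junb and at 2 places before Ier3 (33.9% of stretches). The EGR element was found before Fosb (2.57% of stretches). The AP-1 element TGACTCA (4.46%) and the CArG box (1.47%) had no match in these 6 stretches, which says only that the letters are not in this window.

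The members did not move as 1 group across the clusters. Fos, Jun and Junb were highest in Tcm, Egr1, Egr2 and Ier3 were low in Tn and Tcm and high in transitory Teff and TIM-3+ Tex, and Jund and Ier2 hardly differed between clusters. The plot of levels by cluster and library shows these patterns.

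**Figure D1:**
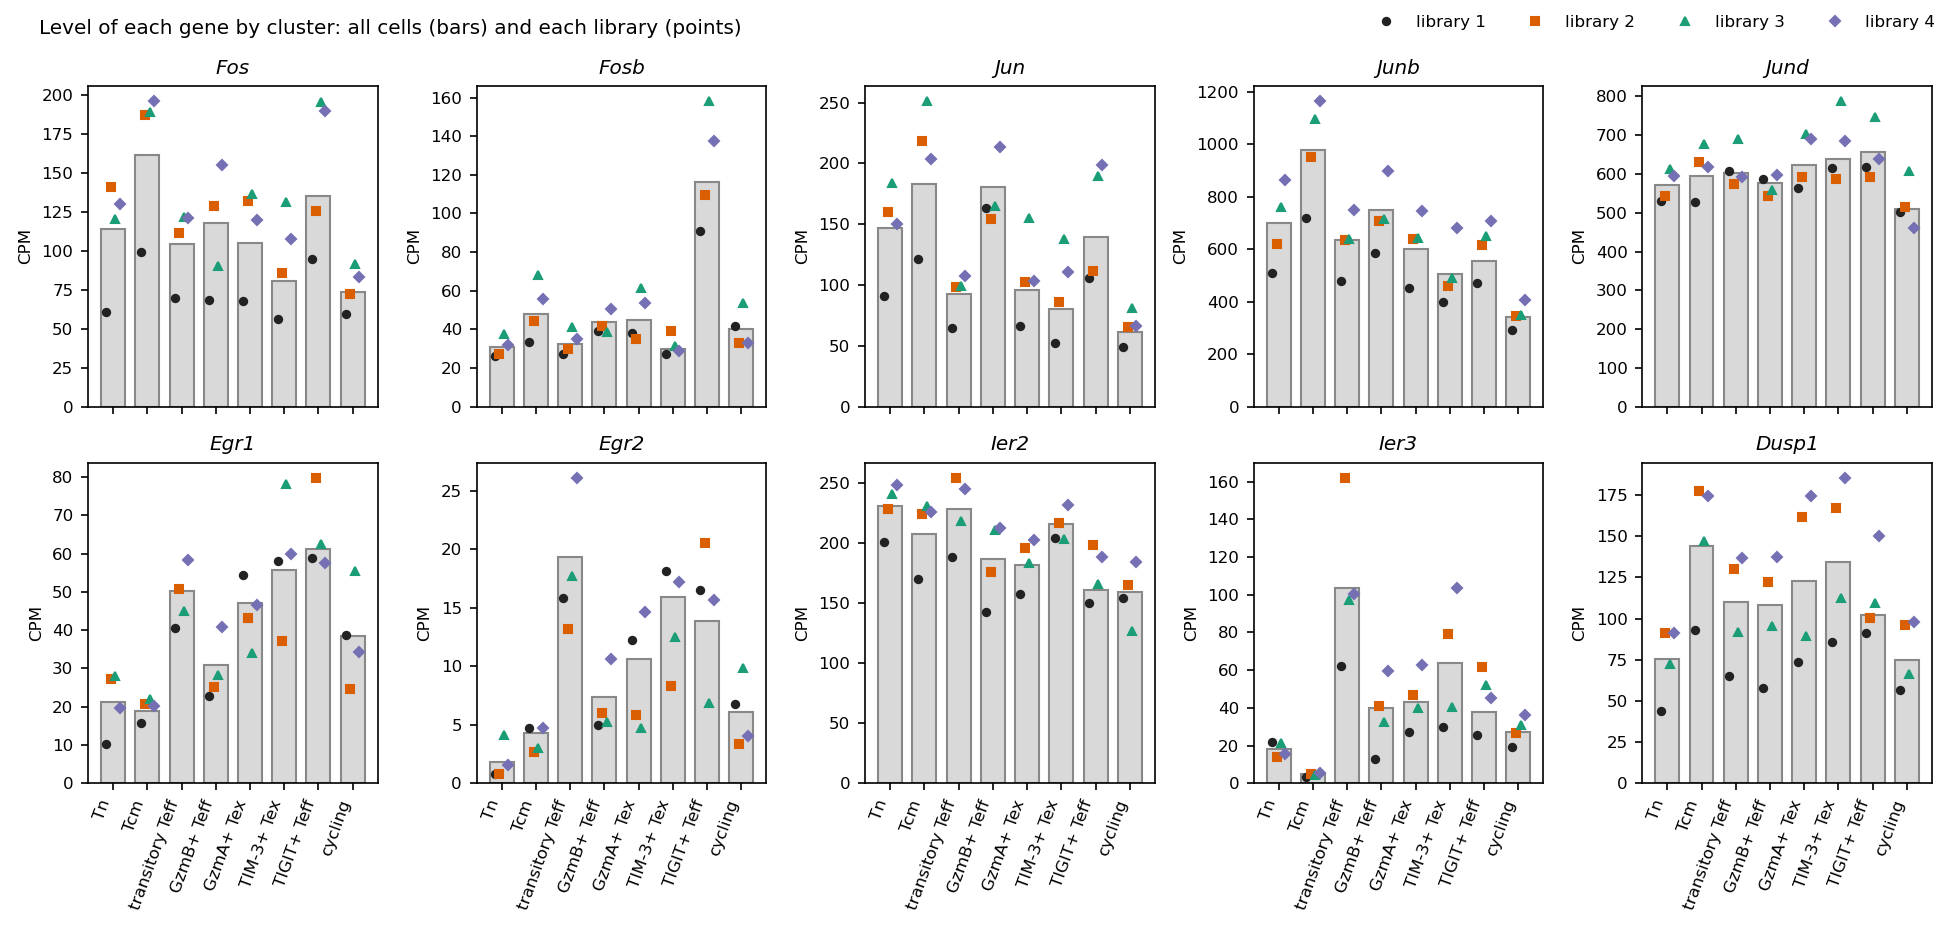
Level of each of the 10 genes in CPM (vertical axes, each from 0) in the 8 clusters (horizontal axis), with bars for all cells of a cluster and 1 point for each of the 4 libraries. Junb was highest in Tcm and lowest in cycling cells in all 4 libraries, Fosb was highest in TIGIT+ Teff in all 4, and Ier3 was lowest in Tcm in all 4.

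Junb, an AP-1 subunit that can act against JUN as well as with it, showed the most regular order of clusters. In Tcm it was at 719 CPM in library 1, 953 in library 2, 1098 in library 3 and 1165 in library 4. In cycling cells it was at 292, 347, 348 and 407 CPM in the same libraries. Tcm was the highest and cycling the lowest cluster in each library, and the groups of 4 values did not overlap. Over all cells Junb was at 979 CPM (interval 967 to 991) in Tcm and at 341 CPM (334 to 348) in cycling cells, a 2.87-fold difference. GzmB+ Teff (749.7 CPM) and Tn (699 CPM) followed Tcm, and the intervals of all neighbours in the order were apart, although GzmA+ Tex (599 CPM) was above TIGIT+ Teff (556 CPM) in 2 of 4 libraries and below transitory Teff (635 CPM) in 2 of 4. CPM is a share of UMIs, and cycling cells had the most UMIs, a median of 13959.5 against 5545 to 10378 elsewhere. A low CPM there need not be a low number of transcripts per cell. Junb had 9149 UMIs in 1928 cycling cells, 8261 UMIs in 1891 transitory Teff cells and 25086 UMIs in 3418 Tcm cells. Without thinning, Junb was found in 86.9% of cycling, 86.5% of transitory Teff and 83.7% of TIGIT+ Teff cells. With thinning it was in 50.2%, 69.4% and 65.7%. For Jun and Fos, unthinned shares were 40.4% and 44.1% in cycling and 31.8% and 34.6% in transitory Teff cells.

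Jun, the partner of FOS proteins in the classical AP-1 dimer, was lowest in cycling cells in 4 of 4 libraries. Its levels in cycling cells were 48.9, 65.1, 80.9 and 66.1 CPM in libraries 1 to 4, and those in Tcm were 121, 219, 251 and 204 CPM. Tcm (183 CPM, interval 178 to 189) and GzmB+ Teff (180 CPM, 170 to 191) did not differ beyond their intervals, and each was the higher in 2 of 4 libraries. Transitory Teff (92.2 CPM) and TIM-3+ Tex (80.1 CPM) were below Tn (147 CPM) in the pooled cells.

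Fos, which pairs with JUN proteins, was at 99.1, 187, 189 and 196 CPM in Tcm and at 59.3, 72.4, 91.9 and 83.4 CPM in cycling cells in libraries 1 to 4. Every library had more Fos in Tcm than in cycling cells, and the pooled levels differed 2.20-fold. Tcm was the highest cluster in 3 of 4 libraries, and TIGIT+ Teff in library 3. The middle of the order, from TIGIT+ Teff (135 CPM) through GzmB+ Teff, Tn and GzmA+ Tex to transitory Teff (104.5 CPM), held no neighbours with intervals apart.

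Fosb, a FOS family subunit made as a full and a truncated protein, had 1 cluster far above the rest. In TIGIT+ Teff it was at 90.8, 109, 158 and 138 CPM in libraries 1 to 4, and the next cluster, Tcm, was at 33.5, 44.4, 68.1 and 55.5 CPM. TIGIT+ Teff was the highest cluster in 4 of 4 libraries, and its pooled level was 116 CPM (interval 108 to 125) against 29.96 CPM (26.7 to 33.5) in TIM-3+ Tex, the lowest. Within TIGIT+ Teff, Fosb was at 72.7 CPM in the third of cells with the least Malat1 and at 249 CPM in the third with the most. It was at 80.3 CPM in the third with the lowest mitochondrial share and at 233 CPM in the third with the highest. By depth, it was at 236 CPM in the third of cells with fewest UMIs and at 82.0 CPM in the third with most. These markers moved with Fosb, and their part in its level was not tested.

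Jund, the AP-1 subunit that changes least on stimulation, was at 509.5 CPM in cycling cells and between 572 and 657 CPM in the other clusters, a 1.29-fold range. Of 7604 genes with at least 10 CPM over all cells, 88.6% had a range at least as large as that of Jund when 10 CPM were added to each level. Ier2 ranged 1.45-fold, from 159.6 CPM in cycling cells to 231 CPM in Tn. Neither gene had a cluster that was highest in more than 2 libraries. Dusp1 was highest in Tcm (144 CPM, interval 140 to 149) and TIM-3+ Tex (134 CPM, 127 to 141), whose intervals overlapped, and lowest in cycling cells (75.0 CPM) and Tn (75.5 CPM).

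Ier3, a regulator of survival and of MAP kinase signalling, had the widest range of the members. In transitory Teff it was at 62.2, 162, 97.3 and 100.2 CPM in libraries 1 to 4, whereas in Tcm it was at 3.36, 5.03, 4.32 and 5.66 CPM. The values did not overlap, Tcm was the lowest cluster in 4 of 4 libraries, and transitory Teff was the highest in 3 of 4, with TIM-3+ Tex slightly above it in library 4. TIGIT+ Teff, high in Egr1 and Egr2, was the fifth cluster for Ier3, at 37.7 CPM against 35.9 CPM in all other cells. The pooled levels were 104 CPM (interval 98.1 to 109) in transitory Teff and 4.64 CPM (3.85 to 5.56) in Tcm, a 22.3-fold difference. With 10 CPM added, 1.58% of the 7604 genes had a range at least as large. After thinning every cell to 2500 UMIs, 15.7% of transitory Teff cells (26.4% before thinning) and 0.644% of Tcm cells (2.14% before) held a UMI of Ier3, at unthinned medians of 5545 and 6958 UMIs. The share in Tcm is the lowest of the 8 clusters. The part of stray transcripts in the Ier3 level of any cluster was not tested. Within transitory Teff, Ier3 was at 148 CPM in the third of lowest depth and at 67.8 CPM in the third of highest depth.

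Egr1 was at 40.6, 50.7, 44.9 and 58.3 CPM in transitory Teff and at 15.6, 20.7, 21.9 and 20.3 CPM in Tcm, in libraries 1 to 4, with no overlap. Its pooled level was highest in TIGIT+ Teff (61.2 CPM, interval 55.3 to 67.6), with TIM-3+ Tex (55.6 CPM) and transitory Teff (50.1 CPM) next, and neighbours in this order overlapped. Tn (21.2 CPM) and Tcm (19.0 CPM) were the lowest and did not differ beyond their intervals. Egr2 was sparse, with 912 UMIs in all cells and 8.60 CPM, and was the 1 member that missed the minimum of 10 CPM. It was at 15.8, 13.2, 17.7 and 26.1 CPM in transitory Teff and at 0.782, 0.799, 4.10 and 1.59 CPM in Tn, a 10.5-fold difference between the pooled levels that rests on 251 and 20 UMIs.

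Each cluster was set against all other cells on the scale of log2 (CPM + 10), and a gene was counted when the pooled ratio was at least 2-fold and every library had the same direction. Because the clusters were built from these genes among others, the counts are descriptions. Of the 9 members with at least 10 CPM, Ier3 was the 1 counted as higher in transitory Teff, against 0.0526% of the 7604 genes, and no member was lower there, against 1.92% of genes. On CPM alone, without the added 10, Ier3 was 3.90-fold higher in transitory Teff than in other cells (interval 3.64 to 4.17). In the single libraries this log2 ratio of CPM lay between 1.53 and 2.41. Fosb was the 1 member higher in TIGIT+ Teff, where 4.62% of genes were higher, and none was lower, against 0.658%. Ier3 was the 1 member lower in Tcm, against 4.17% of genes, and none was higher, against 0.658%. Jun and Junb were lower in cycling cells, 2 members against 0.789% of genes, and none was higher, against 4.26%. On CPM alone, Jun was 2.27-fold and Junb 2.16-fold lower in cycling cells than in other cells.

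On the same scale of log2 (CPM + 10), no member reached 2-fold in either direction in the other 4 clusters. The share of genes that did was 0.316% higher and 5.21% lower in Tn, 1.20% higher and 1.53% lower in GzmB+ Teff, 0.263% higher and 0.631% lower in GzmA+ Tex, and 0.658% higher and 1.84% lower in TIM-3+ Tex. On CPM alone sparse members could pass 2-fold. In Tn, for example, Ier3 was 2.11-fold and Egr2 5.11-fold lower than in other cells, each in every library. The median log2 ratio of all 10 members was −0.38 in cycling cells, where the median of all genes was 0.10, and 0.12 in Tcm, where that of all genes was −0.12. In TIM-3+ Tex the members' median was 0.15 against −0.01 over all genes. In TIGIT+ Teff both medians were 0.20 and 0.21, and in Tn −0.24 and −0.22. The map of ratios shows that the medians cover members of opposite direction.

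**Figure D2:**
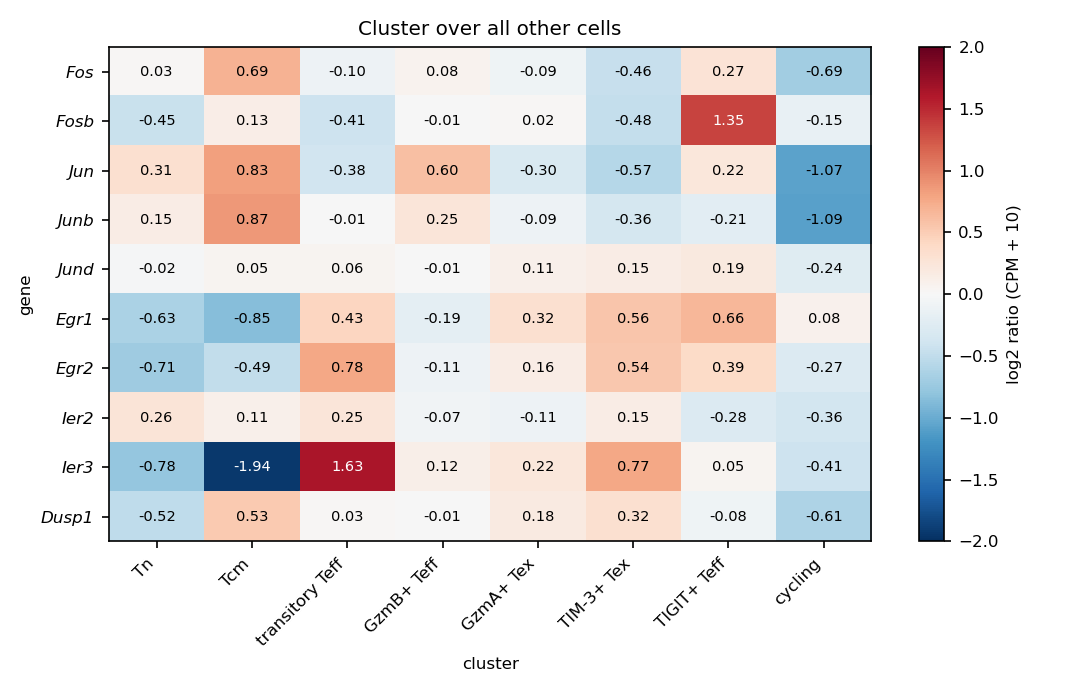
Log2 ratio of CPM + 10 in each cluster (columns) over all other cells, for each of the 10 genes (rows), with red for higher and blue for lower. Ier3 spans the widest range, from −1.94 in Tcm to 1.63 in transitory Teff, and Jun and Junb are at −1.07 and −1.09 in cycling cells.

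Between Tcm and transitory Teff 3 members were higher in transitory Teff, 5 were lower, and Ier2 and Jund hardly differed. By the counting rule 2 members were at least 2-fold higher, against 1.81% of the 7604 genes, and 0 were lower, against 0.894%. Of all these genes, 4702 were above 0 in transitory Teff over Tcm. Ier3 was 22.3-fold higher in transitory Teff than in Tcm (interval 18.5 to 27.1), Egr2 was 4.54-fold higher (3.61 to 5.74) and Egr1 2.64-fold higher (2.35 to 2.98), each in 4 of 4 libraries. On the log2 scale of CPM, Jun was at −0.99, Fos at −0.63, Junb at −0.62, Fosb at −0.58 and Dusp1 at −0.39, each lower in transitory Teff in 4 of 4 libraries. Jund was at 0.02 (interval −0.02 to 0.06) and was higher in 2 of 4 libraries, and Ier2 was at 0.14 (0.07 to 0.20) and was higher in 3 of 4.

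In GzmA+ Tex the cells with no UMI of the macrophage, antigen presentation and plasma cell genes named above numbered 38, or 6.65% of the cluster. In these cells Junb was at 672 CPM (interval 581 to 774), Dusp1 at 152 CPM (110 to 204) and Ier3 at 41.4 CPM (21.4 to 72.3), and each interval held the level of the whole cluster. Fos was at 65.5 CPM (39.4 to 102) against 105 CPM in the whole cluster, which lay outside its interval, and Jun at 62.1 CPM (36.8 to 98.1) against 96.0 CPM. The part of macrophage transcripts in the members' levels in GzmA+ Tex was not tested further.

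Over the 32 pairs of cluster and library, centred within each library, Jun and Junb had a Pearson's r of 0.84, Fos and Jun 0.79 and Fos and Junb 0.73. Egr1 and Egr2 were alike at 0.86, Egr2 and Ier3 at 0.75 and Egr1 and Ier3 at 0.67. Jun and Ier3 went apart at −0.53, and Junb and Egr1 at −0.44. Fosb was not closely like any other member, with Fos as its nearest at 0.54. The points share libraries, depth and the clustering itself, so these values are descriptions.

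**Figure D3:**
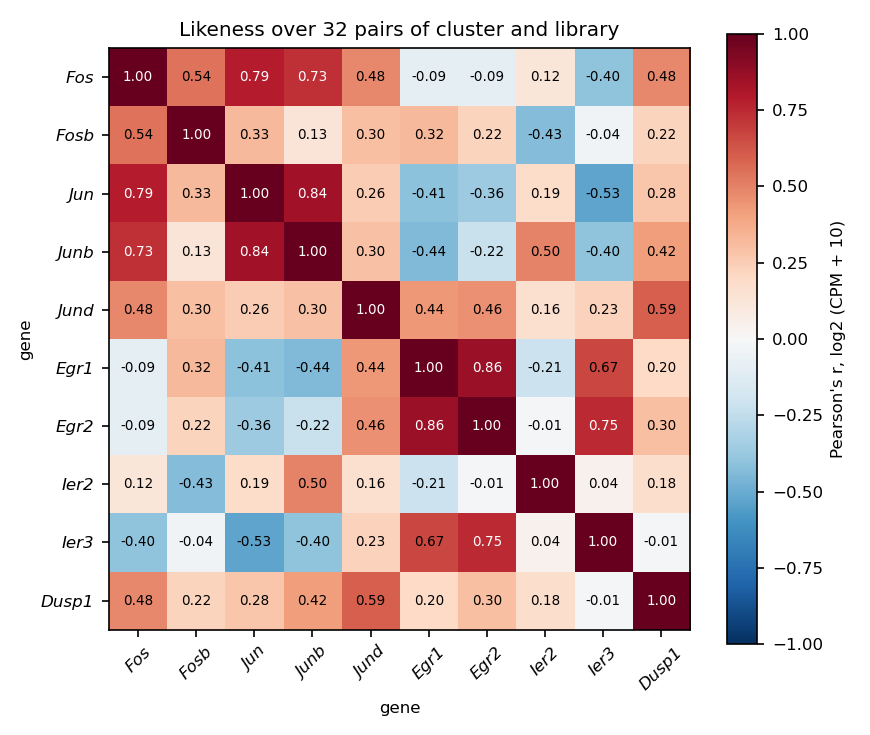
Pearson's r of log2 (CPM + 10) between each pair of the 10 genes, over 32 pairs of cluster and library centred within library. Fos, Jun and Junb form a block of 0.73 to 0.84 and Egr1, Egr2 and Ier3 a block of 0.67 to 0.86, and Ier3 is negative with Fos, Jun and Junb.

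Among 2790 genes with at least 50 CPM, the gene most like Junb was Ltb, which encodes lymphotoxin beta, with r of 0.95 over the same 32 points. Ltb ran from 936 CPM in Tcm to 323 CPM in cycling cells. Pim2, a survival kinase, was most like Jun (0.90), Samd3 most like Fos (0.84), and Ptprc, which encodes CD45, most like Fosb (0.93). Ptprc was at 2562 CPM in TIGIT+ Teff and at 787 to 1163 CPM elsewhere. Dusp2, a phosphatase of the same family as Dusp1, was most like Egr2 (0.85), with 463 CPM in TIM-3+ Tex, 387 CPM in transitory Teff and 195 CPM in Tn. Vgll4 was most like Egr1 (0.90), Tmem50a most like Ier3 (0.88), Eif3e most like Ier2 (0.88), Gyg most like Dusp1 (0.90) and Mxd4 most like Jund (0.73). The mean of the 10 members was most closely followed by Mcl1, a survival protein of the BCL2 family, at 0.86.

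Other genes of the pathway were taken from fixed lists. Of the 7 other AP-1 and bZIP genes with at least 10 CPM, none was 2-fold higher or lower in transitory Teff or in cycling cells. Batf, Jdp2 and Maf were lower in Tn, 3 of 7 against 5.21% of all genes, and Batf (log2 ratio −1.40) and Maf (−1.42) were also lower in Tcm, against 4.17%. Maf was higher in TIM-3+ Tex, at 1.51, where 0.658% of genes were. Batf, an AP-1 factor of effector and exhausted T cells, was at 164 CPM in transitory Teff, 215 CPM in TIM-3+ Tex and 39.5 CPM in Tn. Of 32 other immediate early genes, Id3 was 2-fold higher in transitory Teff (log2 ratio 1.18, against 0.0526% of genes) and none was lower, and none was either in cycling cells, where their median log2 ratio was −0.33 against 0.10 for all genes. In the other clusters, genes were named after their values were seen. Nr4a2, an orphan nuclear receptor induced by receptor signals, was lower in Tn (−2.60) and Tcm (−1.84), where 5.21% and 4.17% of all genes were. It was at least 2-fold higher in TIM-3+ Tex and TIGIT+ Teff, where 0.658% and 4.62% of genes were. Tnfaip3 was also higher in TIGIT+ Teff, Rhob in Tcm (0.658% of genes) and Gadd45g in GzmB+ Teff (1.20%), and Klf2 was lower in TIM-3+ Tex (1.84%). Klf2, a factor of quiescence and egress, was the leading gene named by the rule in transitory Teff, with a log2 ratio of 0.89, and Cd69, the early activation antigen, was at −0.34. Btg1 and Ppp1r15a were at −0.95 and −0.92 in cycling cells. None of 6 dual specificity phosphatases passed 2-fold in transitory Teff or cycling cells, and Dusp2 was at 0.48 in transitory Teff and −0.36 in cycling cells. Of 21 upstream kinases and factors none passed in these 2 clusters, with Creb1 at −0.32 in transitory Teff and Nab1 at 0.55 in cycling cells. In TIGIT+ Teff, Elk4, Nfatc1 and Nfatc3 were 2-fold higher, 3 of 21 against 4.62% of genes, and in Tn Nfatc1 was lower, against 5.21%. Of 9 heat shock genes none passed in transitory Teff or cycling cells either, and Hsp90aa1 was at −0.26 in transitory Teff and 0.83 in cycling cells.

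Library 1 had the lowest level of several members in most or all clusters. Fos, Junb and Dusp1 were lowest in library 1 in 8 of 8 clusters, 3 of the 9 members with at least 10 CPM, against 0.618% of the 7604 genes. Jun and Ier3 were lowest there in 7 of 8 clusters, Ier2 in 6 and Egr2 in 2. In Tn, for example, Fos was at 60.6 CPM in library 1 and at 141, 121 and 130 CPM in libraries 2, 3 and 4. Dusp1 in Tn was at 43.8 CPM in library 1 and at 91.5, 72.2 and 91.3 CPM in the others. The mean log2 difference from the other 3 libraries over the clusters was −0.77 for Fos, −0.71 for Dusp1, −0.63 for Jun, −0.61 for Ier3 and −0.47 for Junb, but −0.11 for Jund and 0.07 for Egr2. Over all genes the median difference was 0.07, and 0.132% of genes were as low in library 1 as Fos.

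The list of 32 other immediate early genes had a median difference of −0.08 in library 1, with Ppp1r15a lowest in all 8 clusters, and the 9 heat shock genes had −0.09, with Dnaja1 lowest in all 8. Junb was highest in library 4 in 8 of 8 clusters, with a mean difference of 0.40 from the other libraries. Jund was highest in library 3 in 7 clusters and Fosb in 6. A library is 1 pool of 5 mice, so mice, treatment, genotype and the sorting and capture of each pool cannot be told apart here.

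**Figure D4:**
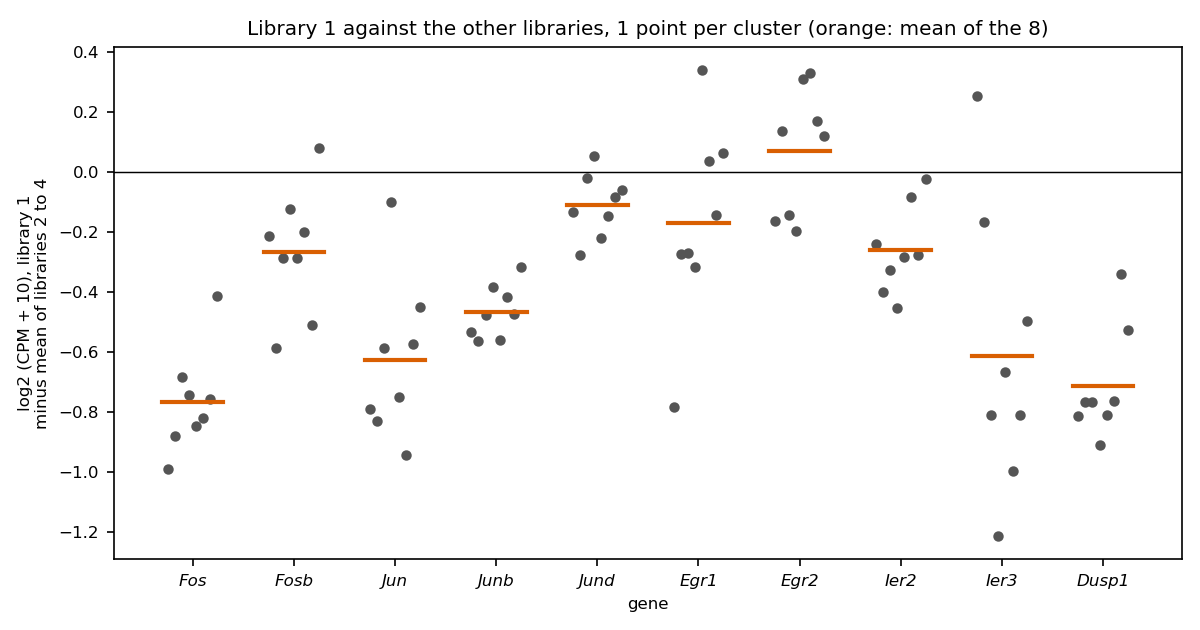
Difference in log2 (CPM + 10) between library 1 and the mean of libraries 2 to 4 (vertical axis) for each gene (horizontal axis), with 1 point for each of the 8 clusters and an orange line for their mean. All 8 points of Fos, Junb and Dusp1 lie below 0, and those of Egr1 and Egr2 lie on both sides.

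Receptor sequences, present for 7961 cells, allowed cells of expanded clones (at least 2 cells of a library with the same receptor) to be set against single clones inside the same cluster and library, where both classes held at least 30 cells. In transitory Teff, Ier3 was at 90.7, 245, 121 and 123 CPM in expanded clones and at 22.4, 69.0, 140 and 38.4 CPM in single clones, in libraries 1 to 4. It was higher in expanded clones in 3 of 4 libraries, with log2 ratios of 2.02 (interval 1.23 to 2.92), 1.83 (1.40 to 2.28) and 1.68 (1.14 to 2.26). Library 3 went the other way, at −0.21 (−0.76 to 0.34), with 113 and 49 cells. The mean log2 ratio over the 4 libraries, with 10 CPM added, was 1.15, and Ier3 was the 1 member of 9 at or above 1, against 0.250% of genes. Dusp1 was higher in expanded clones in 4 of 4 libraries, by 0.16 to 0.88, with 2 intervals above 0. Egr1 was above 0 in 3 libraries and below 0 in library 4, and with cells thinned to 2500 UMIs it was below 0 in library 3 as well. Fos was above 0 in 1 of 4 libraries, and in 3 of 4 with thinned cells.

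In cycling cells, Ier3 was at 15.9, 35.8, 39.0 and 44.8 CPM in expanded clones and at 11.3, 5.54, 16.9 and 11.2 CPM in single clones. It was higher in 4 of 4 libraries, with 3 intervals above 0 and a mean of 1.02 with 10 CPM added, the 1 member of 9 at or above 1 against 0.316% of genes. Fos was at 55.4, 45.9, 59.1 and 57.3 CPM in expanded cycling clones and at 84.5, 56.8, 157 and 165 CPM in single ones, lower in 4 of 4 libraries. With cells thinned, Fos in library 1 was at 90.4 CPM in expanded and 84.8 CPM in single clones, so that it was lower in 3 of 4. Jun and Junb were also lower in expanded cycling clones in 4 of 4 libraries, by −0.35 to −1.38 and by −0.14 to −0.58 on the log2 scale. With cells thinned, Jun was lower in 3 of 4, with 66.2 CPM in expanded and 42.1 CPM in single clones of library 3, and Junb in 4 of 4. Ier3 with thinned cells was nearly level in library 1 (20.5 and 20.2 CPM), and its interval lay above 0 in 2 libraries.

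Ier3 was also higher in expanded clones in GzmB+ Teff in 2 of 2 libraries and in GzmA+ Tex in the 1 library with enough cells, with intervals above 0. In TIGIT+ Teff it was higher in library 3, at 69.1 against 16.0 CPM (log2 ratio 2.11, interval 0.60 to 4.08). Library 1 held too few UMIs to give a direction there, at 13.3 and 9.89 CPM (0.43, −1.80 to 3.06). Jun was lower in expanded TIGIT+ Teff clones in 2 of 2 libraries, and Dusp1 as well, with both intervals below 0 for each gene. In Tcm, expanded clones held 0 CPM of Ier3 in library 1 and 1.18 CPM in library 4. Single clones held 2.80 and 3.23 CPM, lower in expanded clones in both but too few for a ratio. Cells of expanded clones had fewer UMIs than single clones in every transitory Teff comparison, with medians of 4371 to 5349 against 5438.5 to 6499. The same held in every cycling comparison, with 9135 to 12533 against 11106 to 14445.5. It also held in both GzmB+ Teff comparisons (4763 and 5121 against 7502 and 7754) and in GzmA+ Tex (6347.5 against 7742). Tcm in library 1 and TIGIT+ Teff in library 3 went slightly the other way. The largest clone held 16.5% to 24.2% of the expanded transitory Teff cells. Without it the log2 ratio of Ier3 was 2.01, 1.33, −0.08 and 1.69 in libraries 1 to 4.

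**Figure D5:**
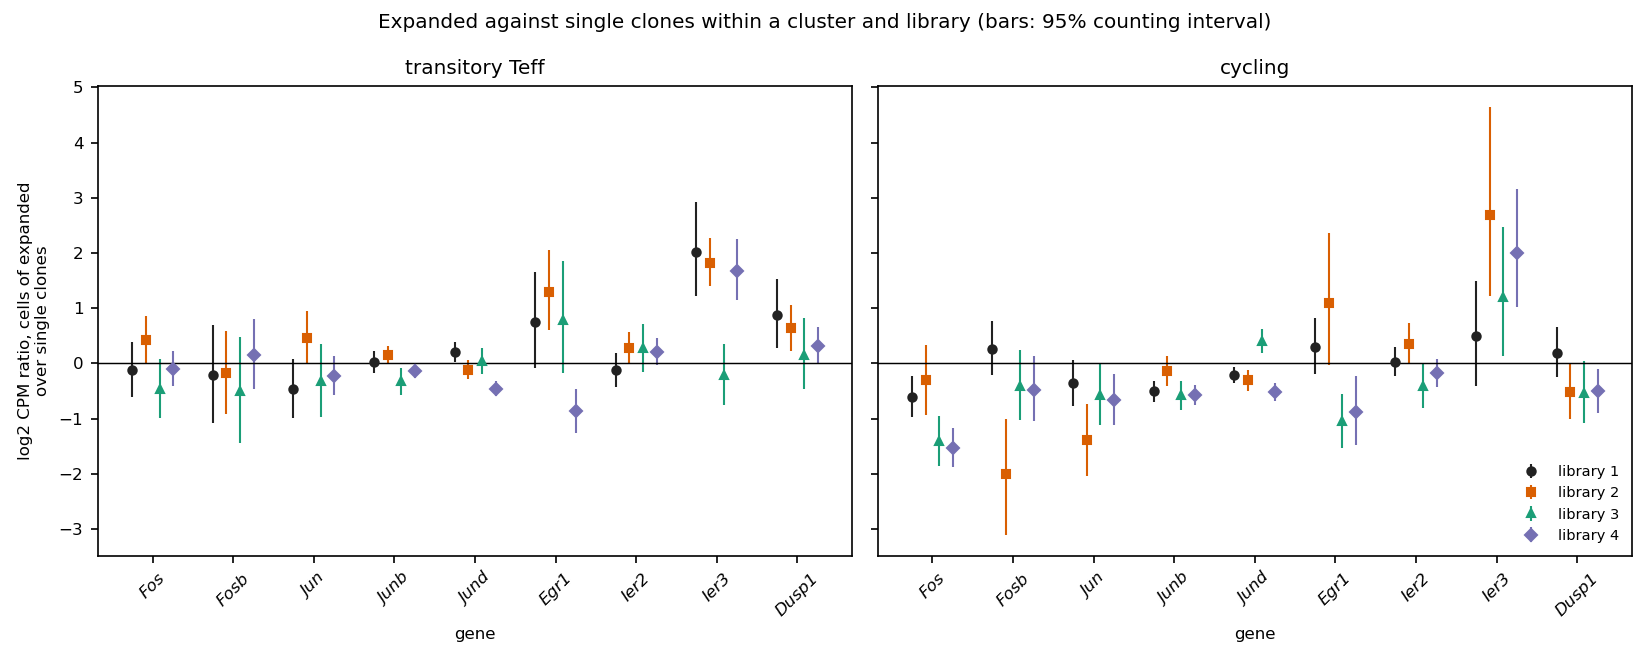
Log2 ratio of CPM in cells of expanded clones over single clones (vertical axis) for 9 of the genes in transitory Teff (left) and cycling cells (right), with 1 point per library and bars for the 95% counting interval. Ier3 is above 0 in 3 of 4 libraries on the left and 4 of 4 on the right, whereas Fos, Jun and Junb are below 0 in every library on the right, which with cells thinned to 2500 UMIs held for Junb but not for Fos in library 1 or Jun in library 3.

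Members were also looked at in the same cell after thinning to 2500 UMIs, and the pairs named were chosen after their values were seen. In transitory Teff, Egr2 was found in 13.7% of 161 cells with Egr1 (interval 8.77% to 19.95%) and in 1.97% of cells without it (1.36% to 2.74%), higher in 4 of 4 libraries. Jun was found in 24.0% of transitory Teff cells with Fos (19.5% to 29.0%) and 15.04% of those without (13.3% to 16.9%), again in 4 of 4. Fosb was in 15.8% of cells with Fos and 5.12% of cells without. Ier3 was found less often with Fos, in 11.2% (8.04% to 15.2%) against 16.6% (14.8% to 18.6%), lower in 4 of 4 libraries although the intervals overlap. Ier3 was found in 15.5% of transitory Teff cells with Egr1 (10.3% to 22.1%) and 15.7% of those without, although both genes had high pooled levels in this cluster.

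In TIGIT+ Teff, Fosb was in 42.2% of 218 cells with Fos (35.6% to 49.1%) and 19.7% of cells without (16.6% to 23.2%), higher in the 3 libraries with enough cells. Transcripts of the members were spread over most cells. The median cell held 3 to 5 of their UMIs at the thinned depth, and 2.11% of Tcm cells to 7.52% of cycling cells held none. The tenth of cells with the most member UMIs held 22.4% to 25.4% of them. Junb and Jund made up 64.9% of the members' UMIs, so these values mostly describe those genes. Without thinning, the share of all cells with a UMI ran from 4.35% for Egr2 and 14.7% for Ier3 to 90.6% for Junb and 93.9% for Jund.

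Depth and RNA composition moved with some members inside clusters. Dusp1 was lower in the third of highest depth than in the third of lowest depth in 7 of 8 clusters by their intervals, and higher in 0. Jun was higher in the third with the highest mitochondrial share in 7 of 8 clusters, whereas Ier3 was lower in 6 and higher in 0. Fos, Fosb and Jun were each higher in the third with the most Malat1 in 7 of 8 clusters, and Dusp1 in 8. Cycling cells had a median of 13959.5 UMIs and transitory Teff of 5545. The part of these measures in the differences between clusters was not tested beyond the closing section, which gives thinned levels and means of each cell's CPM.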

How the data were processed

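Droplet libraries of CD8+ T cells, 1 per treatment group, were made with 10X chemistry and aligned by the authors with Cell Ranger 7.00 to mm10, per the submitters' processing notes. Reads were downsampled across libraries, and the cell filters used UMIs, the share of mitochondrial RNA, and detection of Cd8a and Cd3e/g. The deposited expression table holds raw UMI counts per gene and cell, not normalized, and the cell table adds a UMI count, the mitochondrial fraction computed by the authors, their cluster name, Leiden number and library number. Whether intronic reads were counted is not given in the sources used here. No doublets were removed here. Gene symbols came from GENCODE M21.

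Counts were summed over cells to CPM (Python 3.11.15, numpy 2.4.6, scipy 1.17.1, pandas 2.3.3). Intervals were exact Poisson for levels, exact binomial (Clopper-Pearson) for shares and conditional binomial for ratios, at 95%, and cover counting error only. A gene was counted at 2-fold on log2 (CPM + 10) with the same sign in 4 libraries and at least 10 CPM over all cells. Shares used cells thinned to 2500 UMIs with a fixed seed. The ratio and thinning steps were tested on simulated data. The libraries are not mapped to treatments, so nothing was tested between them. The members and the companion lists were chosen with earlier results of these data known. Companion genes were named by a rule, those with at least 50 CPM, the same sign in 4 libraries and the largest ratios in transitory Teff (up to 4 per list) and cycling cells (up to 2), and by likeness the 10 genes nearest the members' mean and the nearest to each member. Promoter stretches came from RefSeq, where 8 of the 10 members had an entry. The counts, medians and ratios were recomputed with thinned cells, per-cell means, library means, Leiden numbers, cells without transcripts of other types, cells with at most 1 TRB chain, 1 cell's weight per clonotype, another pseudocount, no filter on low genes and each library left out.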

Additional observations from a re-analysis of the deposited data

How the results depend on the processing

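Of 96 recomputed medians of the 10 members' log2 ratios, 81 moved by less than the counting interval, and of 208 recomputed counts at 2-fold, 200 stayed within 1.5 times. Single members were less stable. Of 120 recomputed log2 ratios of a member in transitory Teff, 42 moved by more than the counting interval, and Egr2, Dusp1, Junb and Jund changed sign under at least 1 alternative. All 10 shares of transitory Teff cells with a UMI were higher without thinning, and 7 of 126 recomputed ratios between expanded and single clones moved. With thinned cells, Fos in library 1 and Jun in library 3 turned from lower to higher in expanded cycling clones. Thinning to 2500 UMIs put the median at −0.35 in Tn, 0.043 in Tcm, −0.21 in GzmA+ Tex, where the sign turned from 0.06, and −0.49 in cycling cells, and the number lower in Tcm at 2, Egr1 and Ier3. The mean over cells gave −0.36 in Tn, 0.052 in Tcm and −0.49 in cycling cells. Leiden numbers gave 0.14 in GzmB+ Teff and 1 member, Ier3, higher in TIM-3+ Tex. Counting each clonotype once gave −0.16 in transitory Teff, where the sign turned from 0.04, 0.19 in GzmA+ Tex, 0.38 in TIGIT+ Teff and 2 members, Egr1 and Ier3, higher in TIM-3+ Tex. A pseudocount of 1 CPM gave −0.54 in cycling cells, 1 member, Ier3, lower in Tn and 2, Egr1 and Ier3, lower in Tcm. The cause of these changes was not tested.

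Leaving out each library in turn gave medians of 0.0515 to 0.21 in Tcm (without library 4 and without library 1) and 0.0425 to 0.25 in TIGIT+ Teff (lowest without library 3). The number lower in Tn was 0 to 1 and the number higher in TIM-3+ Tex 0 to 1, in both cases Ier3 without library 1, and the number lower in cycling cells was 1 to 2, with Junb alone without library 4. Ier3 was 2-fold higher in transitory Teff under every alternative run, with log2 ratios of 1.42 to 1.92. The mean log2 ratio of Ier3 between expanded and single transitory Teff clones was 0.97 to 1.59 with 1 library left out, highest without library 3, 1.18 with clones of at least 5 cells, and 1.06 without the largest clone, the last chosen after seeing the data. Fos, Junb and Dusp1 being lowest in library 1 in all 8 clusters, also recomputed with settings chosen after seeing the data, gave 2 to 4 members. No paired analysis was possible because each group has 1 library. Depth limits Egr2 most, with 912 UMIs in all.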
